A study of Mus musculus with 23 samples.

Results

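The mitochondrial ribosomal protein genes were the protein-coding genes whose symbol begins with Mrpl or Mrps followed by a digit, with symbols taken from the GENCODE M21 annotation of the mouse genome build GRCm38. Of 38293 genes in the count tables, 77 met this rule, 48 Mrpl and 29 Mrps genes. Of these, 76 passed a filter on low counts that left 16087 genes for testing. The annotation holds 78 such genes, and Mrpl33 was not analysed here.

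RNA was sequenced from primary astrocytes, the glial cells that support neurons and convert and take up thyroid hormone in the brain, which had been grown for 7 days from the neocortex of mice at postnatal day 3. The mice were of a hybrid background of 129/OLa, 129/Sv, BALB/c and C57BL/6, and enrichment for astrocytes was stated as above 95%. All cultures were kept in serum deprived of thyroid hormone, at 0.1% for the last 24 h before treatment. There were 3 libraries of cells given 10 nM T3, the active thyroid hormone, for 24 h, against 4 of 24 h control cells without T3. At 6 h there were 4 libraries each of cells with cycloheximide (CHX) and T3, with CHX alone, with T3 alone, and of controls with neither. CHX, which blocks protein synthesis on cytosolic ribosomes, was given at 8 µg/ml, 30 minutes before T3. The labels name replicates without saying whether they came from separate cultures or animals, so a p-value here speaks only to variation among the libraries at hand, part of which may be technical.

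Mitochondria carry their own ribosome, which makes the few respiratory chain proteins that the mitochondrial genome encodes. Its RNAs come from that genome, while all of its proteins are encoded in the nucleus, made in the cytosol and imported. Some of these proteins descend from bacterial ribosomal proteins and others are found in mitochondrial ribosomes only, and their genes are driven in many cell types by the factors NRF1, GABP and YY1. T3 acts through nuclear receptors and is known as a regulator of mitochondrial content in several tissues. CHX does not act on the mitochondrial ribosome.

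Labels and cells were checked first. The T3-responsive gene Hr had 219 to 247 CPM (read counts relative to the TMM-scaled library size) in 24 h T3 libraries, against 16.7 to 18.8 CPM in 24 h controls. Hr had 193 to 226 CPM with T3 at 6 h, against 9.34 to 12.2 CPM in 6 h controls, and 108 to 120 CPM with CHX and T3, against 14.9 to 17.4 CPM with CHX alone. All 13 astrocyte markers had counts in all groups, with summed levels of 8663 to 14024 CPM. Markers of microglia summed to 42.0 to 149 CPM and those of neurons to 436 to 591 CPM, while the oligodendrocyte lineage reached 533 to 1095 CPM and vascular and meningeal markers 1509 to 3191 CPM. Libraries held 13843040 to 22997873 gene counts.

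Promoters are shown for members on both sides of the CHX response described below, so that their sequences can be set beside it. RefSeq's promoter table on GRCm38.p6, which covers 250 bases before and 50 bases after each start, had an entry for 68 members. Capitals mark matches, on either strand, to 3 motifs: NRF1 (GCGCANGCG), the ETS motif bound by GABP (ACTTCCGG), and YY1 (AAGATGGCG). Mrps18c, Mrpl18 and Mrpl50 fell most with CHX, Mrpl39, Mrpl32 and Mrps26 rose, and Mrps11 is shown for its YY1 match. The windows lie at chr5:100798509-100798808 (plus strand, Mrps18c), chr17:12916042-12916341 (minus strand, Mrpl18), chr4:49521034-49521333 (minus strand, Mrpl50), chr16:84735195-84735494 (minus strand, Mrpl39), chr13:14612988-14613287 (minus strand, Mrpl32), chr2:130563507-130563806 (plus strand, Mrps26) and chr7:78782881-78783180 (plus strand, Mrps11), each written 5′ to 3′ along the gene.
Mrps18c: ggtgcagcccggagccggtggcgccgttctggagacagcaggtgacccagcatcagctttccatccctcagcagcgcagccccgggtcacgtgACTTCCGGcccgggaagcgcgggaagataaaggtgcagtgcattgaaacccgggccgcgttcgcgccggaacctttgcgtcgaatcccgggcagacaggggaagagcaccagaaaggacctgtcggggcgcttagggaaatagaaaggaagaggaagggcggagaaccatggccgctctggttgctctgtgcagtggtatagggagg
Mrpl18: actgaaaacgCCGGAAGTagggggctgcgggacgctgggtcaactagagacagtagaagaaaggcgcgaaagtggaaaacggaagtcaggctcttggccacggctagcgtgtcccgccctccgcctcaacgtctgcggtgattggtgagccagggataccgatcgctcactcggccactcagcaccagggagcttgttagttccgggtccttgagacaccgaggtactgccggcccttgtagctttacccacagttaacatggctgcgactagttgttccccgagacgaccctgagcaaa
Mrpl50: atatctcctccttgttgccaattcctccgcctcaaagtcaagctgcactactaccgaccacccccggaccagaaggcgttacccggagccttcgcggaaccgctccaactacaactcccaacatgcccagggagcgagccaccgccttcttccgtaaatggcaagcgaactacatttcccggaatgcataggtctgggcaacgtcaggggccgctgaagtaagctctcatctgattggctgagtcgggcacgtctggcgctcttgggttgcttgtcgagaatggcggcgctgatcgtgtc
Mrpl39: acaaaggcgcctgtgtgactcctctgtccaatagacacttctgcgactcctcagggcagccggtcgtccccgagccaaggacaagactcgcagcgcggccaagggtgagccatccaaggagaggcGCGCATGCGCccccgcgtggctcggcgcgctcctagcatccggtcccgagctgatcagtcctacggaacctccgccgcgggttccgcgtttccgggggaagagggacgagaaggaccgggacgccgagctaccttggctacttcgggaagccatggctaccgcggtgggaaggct
Mrpl32: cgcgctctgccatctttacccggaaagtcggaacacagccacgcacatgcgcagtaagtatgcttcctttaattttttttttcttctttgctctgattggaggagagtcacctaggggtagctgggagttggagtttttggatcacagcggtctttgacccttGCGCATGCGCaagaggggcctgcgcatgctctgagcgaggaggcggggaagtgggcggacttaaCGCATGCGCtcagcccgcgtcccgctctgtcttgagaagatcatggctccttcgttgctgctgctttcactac
Mrps26: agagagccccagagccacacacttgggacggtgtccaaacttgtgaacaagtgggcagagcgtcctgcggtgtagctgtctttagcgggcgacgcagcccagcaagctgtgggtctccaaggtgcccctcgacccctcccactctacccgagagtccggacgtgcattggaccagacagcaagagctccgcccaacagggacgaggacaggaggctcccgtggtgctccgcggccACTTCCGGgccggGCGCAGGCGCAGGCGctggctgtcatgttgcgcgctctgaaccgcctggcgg
Mrps11: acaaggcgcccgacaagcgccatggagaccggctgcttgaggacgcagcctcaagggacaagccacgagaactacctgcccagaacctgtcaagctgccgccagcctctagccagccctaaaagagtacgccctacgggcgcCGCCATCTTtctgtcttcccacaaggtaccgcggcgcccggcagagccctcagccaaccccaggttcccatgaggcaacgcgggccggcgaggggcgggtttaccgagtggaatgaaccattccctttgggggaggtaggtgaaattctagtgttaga

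The NRF1 motif was in the promoters of 16 of the 68 members (23.5%), against 7.03% of all genes in the table. The ETS motif was in 11 of 68 (16.2%), against 4.31% of genes, and the YY1 motif in 8 of 68 (11.8%), against 1.64%. In all, 33 of 68 members held at least 1 of the 3 motifs, against 11.9% of genes. The hexamer bound by thyroid hormone receptors, AGGTCA, was in 11 of 68 members (16.2%), against 18.1% of genes, and in none of the 7 windows printed. Matches that overlap were counted separately: the NRF1 core reads nearly the same on both strands, so 1 stretch of Mrpl39 holds a pair of matches, and in Mrps26 a pair shares bases. Members on either side of the CHX response held these motifs. NRF1 matches were in 5 of 16 members that rose with CHX, in 6 of 21 that fell and in 5 of 30 that were not called. For the ETS motif these counts were 2 of 16, 4 of 21 and 5 of 30, and for YY1 1 of 16, 2 of 21 and 5 of 30. A match describes letters in this window only.

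Members spanned a wide range of levels, compared per kilobase of exon because longer genes collect more reads. The median member had 12.0 CPM per kilobase over all 23 libraries. Mrps6, counterpart of bacterial S6, was highest at 128 CPM per kilobase, followed by Mrpl34 (52.0), Mrpl2 (50.3), Mrpl28 (49.5) and Mrps21 (45.8). Mrps6 averaged 80.7 ± 19.9 CPM per kilobase with T3 at 24 h (SD, n = 3) and 70.5 ± 3.31 in 24 h controls (SD, n = 4), and between 145 and 163 in the 4 groups at 6 h. Its 24 h T3 values lay within 1 SD of those of Mrpl34, which averaged 68.9 there. The lowest that passed the filter were Mrpl23 (0.214), Mrps36 (0.982), Mrpl48 (1.99), Mrps10 (2.67) and Mrps35 (3.35). Processed pseudogenes named after Mrpl23, Mrpl48 and Mrps36 are annotated, so reads of these 3 genes may have been lost or shared, and their levels are uncertain. Sequence is shared by others too: of the 50-base words of a member's exons, 22.4% occur in another gene's transcripts on the same strand for Mrpl22 (Gm6997), 22.3% for Mrpl27 (Gm6304), 17.3% for Mrps36, 13.3% for Mrps33 (Gm5776), 11.6% for Mrpl23 and 11.3% for Mrpl41 (Gm6434). Members with annotated exon overlaps had such shares as well: 34.2% for Mrps34, 17.3% for Mrps6, 14.6% for Mrps18b and 11.8% for Mrps24. Their levels are uncertain for the same reason. The protein of Mrps36 is now known as a subunit of the alpha-ketoglutarate dehydrogenase complex and not of the ribosome.

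**Figure D1:**
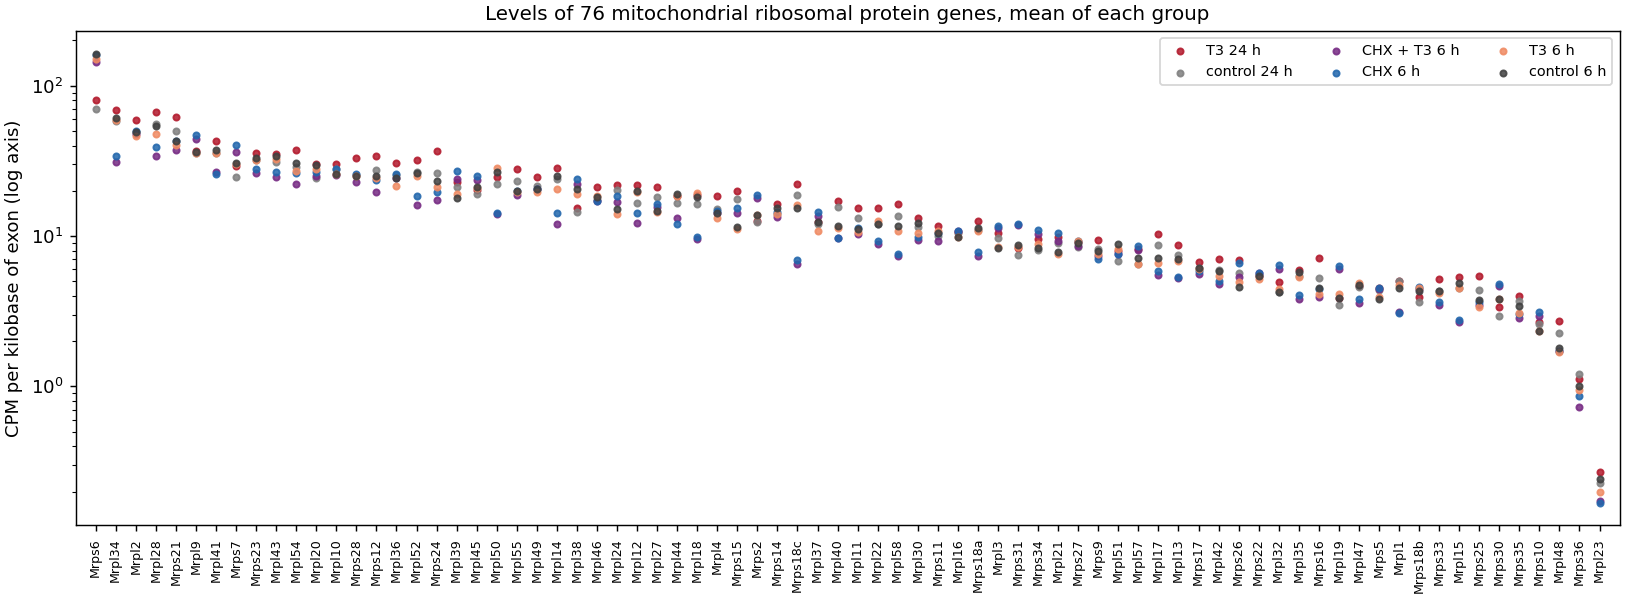
Mean level of each of the 76 tested members in each of the 6 groups, in CPM per kilobase of exon on a log axis, with members ordered by their mean over all libraries. Mrps6 lies highest, at 128 CPM per kilobase over all libraries, and Mrpl23 lowest, at 0.214.

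Mrpl53 did not pass the filter, with 0 to 3 counts per library. Gm42688, a gene annotated on the same strand, covers 88.0% of its exon bases, and 82.0% of the 50-base words of Mrpl53 occur in another gene's transcripts, so no level is given. Exons of 32 members overlap those of another gene, 23 of them those of a protein-coding gene. The largest overlaps were of Mrps25 with Nr2c2 (69.8% of exon bases), Mrps34 with Mapk8ip3 (63.4%) and Nme3 (37.0%), Mrpl19 with Gcfc2 (36.0%), Mrpl43 with Twnk (33.4%), Mrps18b with Gm16279 (30.5%) and Mrpl24 with Rrnad1 (26.3%). Mrpl46 and Mrps11 overlap each other at their starts by 173 bases. Overlaps of smaller extent were found for Mrpl10, Mrpl12, Mrpl13, Mrpl14, Mrpl18, Mrpl21, Mrpl27, Mrpl3, Mrpl36, Mrpl44, Mrpl47, Mrpl48, Mrpl49, Mrpl51, Mrpl58, Mrpl9, Mrps18c, Mrps24, Mrps26, Mrps27, Mrps30, Mrps6 and Mrps7. The library kit does not mark strand, so reads of either strand look alike, and reads from these stretches may have been left out as ambiguous or given to either gene. This does not apply to Mrpl3 and Mrps18c, whose overlapping genes were not among the genes counted.

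As a group, the 77 members took a small and similar share of all gene counts in the 6 groups. The share was 0.299 ± 0.0565% in 24 h T3 libraries (SD, n = 3), against 0.266 ± 0.00603% in 24 h controls (SD, n = 4). It was 0.248 ± 0.0219% with CHX and T3, 0.269 ± 0.00422% with CHX alone, 0.248 ± 0.0242% with T3 at 6 h and 0.259 ± 0.0242% in 6 h controls (SD, n = 4 each). The high 24 h T3 mean came with 1 library, since replicate 1 had 0.364% while replicates 2 and 3 had 0.267 and 0.265%. Without it the 24 h T3 mean was 0.266%. In bulk RNA, fewer cells that express a gene and less RNA per cell cannot be told apart.

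**Figure D2:**
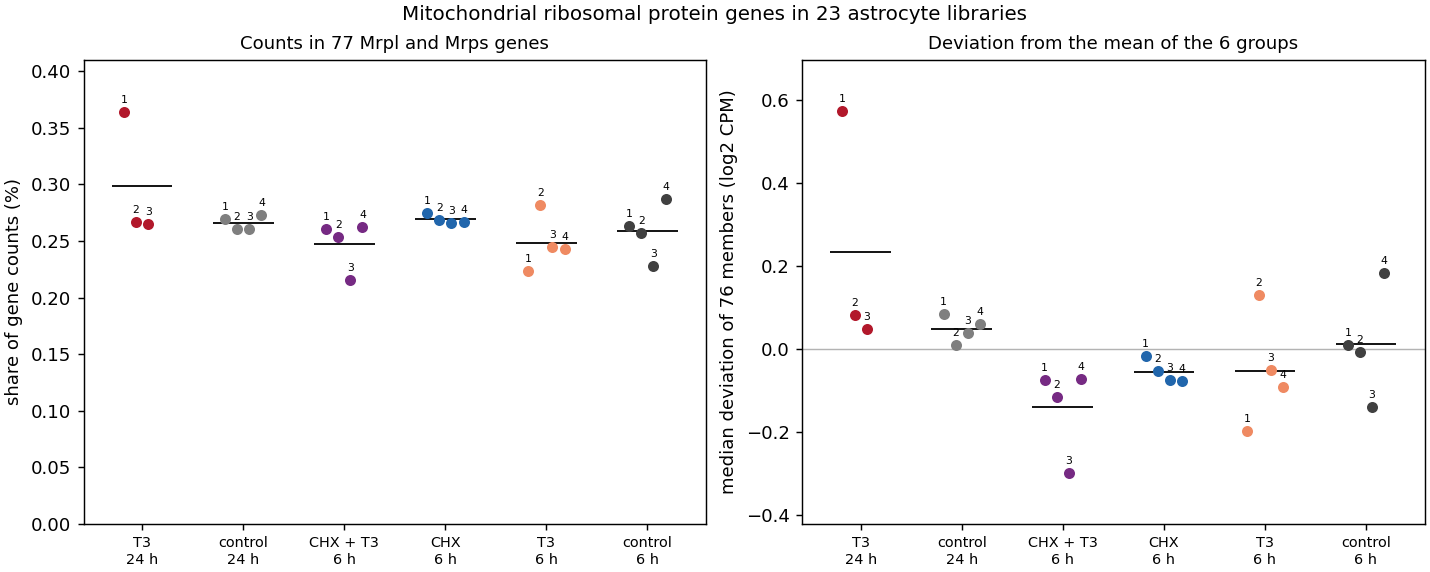
Left, share of gene counts in the 77 members (%), and right, the median over 76 members of the deviation from the mean of the 6 groups (log2 CPM), for each of 23 libraries, with group means as lines and replicate numbers beside the points. 24 h T3 replicate 1 lies highest in both, at 0.364% and 0.57 log2, and CHX with T3 replicate 3 lowest, at 0.215% and −0.30 log2.

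24 h T3 replicate 1 stood apart before any comparison. It was the highest of the 7 libraries at 24 h in 74 of 76 members, against 32.8% of all tested genes. Members lay a median of 0.50 log2 higher there than in replicates 2 and 3, with a range of −0.05 to 0.90, where the median of all genes was 0.01. Measured instead as the deviation from the mean of the 6 groups, the median member stood at 0.57 log2 in that library, 38 nuclear respiratory chain genes at 0.76, 47 cytosolic ribosomal protein genes at 0.70 and 9 mitochondrial transcripts at 0.40. On the same measure 20 mitochondrial tRNA synthetase genes stood at 0.15 and 30 assembly factors at 0.07. Translation factors and associated genes (18) stood at 0.05 and 19 regulators at −0.20. Alignments that were not unique made up 42.3% of its counted lines, against 37.5 and 37.3% in replicates 2 and 3. In all 6 groups the library with the lowest share of such alignments also had the lowest deviation of the members, and in 4 of 6 the same held for the highest. With the trend of counts on exon length and GC content removed, the deviation of replicate 1 was 0.35 log2 in place of 0.57. The part of these differences in the results was not tested, and results are given with and without this library.

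No member passed the test after 24 h of T3. All 76 were compared, and 0 were called at an adjusted p under 0.05 by edgeR's quasi-likelihood test with Benjamini-Hochberg adjustment over all genes, where 7.09% of all genes were called. DESeq2 called 1, and its share over all genes is not given. Fold changes were positive in 72 of 76 members, against 50.9% of all genes, with a median of 0.20 log2 against 0.00 for all genes. An unadjusted p under 0.05 was found for 23 members, all higher with T3, and for 20.6% of all genes in either direction. Without T3 replicate 1 the median was 0.01 log2 and 42 of 76 were positive, against 49.5% of all genes. No member had an unadjusted p under 0.05 in that fit, against 16.7% of all genes, and 5.91% of all genes were called. Groups did not overlap in 8 members, all higher with T3, a state that 8.13% of all genes showed.

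The 3 members with the smallest adjusted p were Mrps24, Mrpl22 and Mrpl12. Mrps24 (chr11:5703983-5715680, minus strand, GRCm38), counterpart of the bacterial S3 protein at the entry of the mRNA channel, had 71.9, 45.4 and 43.3 CPM with T3, against 41.6, 37.9, 35.5 and 39.6 CPM in controls. Of the 50-base words of Mrps24, 11.8% also occur in Urgcp transcripts on the same strand. The groups did not overlap, and replicate 1 was far above the other 2. The log2 fold change was 0.47 ± 0.15 (SE; edgeR adjusted p = 0.0638) and 0.20 without replicate 1 (adjusted p = 0.494). Mrpl22, which lines the peptide exit tunnel, had 17.4, 15.1 and 12.4 CPM with T3, against 12.6, 11.2, 11.2 and 11.8 CPM in controls, with 1 T3 value inside the control range. Its words shared with Gm6997 make its level uncertain, and its log2 fold change was 0.35 ± 0.12 (edgeR adjusted p = 0.0731) and 0.23 without replicate 1 (adjusted p = 0.345). Mrpl12, counterpart of the L7/L12 stalk protein, had 42.4, 29.7 and 29.1 CPM with T3, against 28.0, 24.3, 23.6 and 25.8 CPM in controls. Here too the groups did not overlap, and the log2 fold change was 0.40 ± 0.14 (edgeR adjusted p = 0.101) and 0.21 without replicate 1 (adjusted p = 0.509). Mrpl23-ps1, the processed pseudogene named after Mrpl23 and no member, had 23.4, 16.5 and 14.4 CPM with T3, against 13.5, 11.9, 12.0 and 12.8 CPM in controls, while Mrpl23 itself averaged 1.32 CPM with T3 and 1.11 CPM in controls. The groups of the pseudogene did not overlap, and it was called at 0.52 log2 (edgeR adjusted p = 0.0243), and not without T3 replicate 1 (0.30 log2, adjusted p = 0.234). Which gene its reads came from was not tested.

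**Figure D3:**
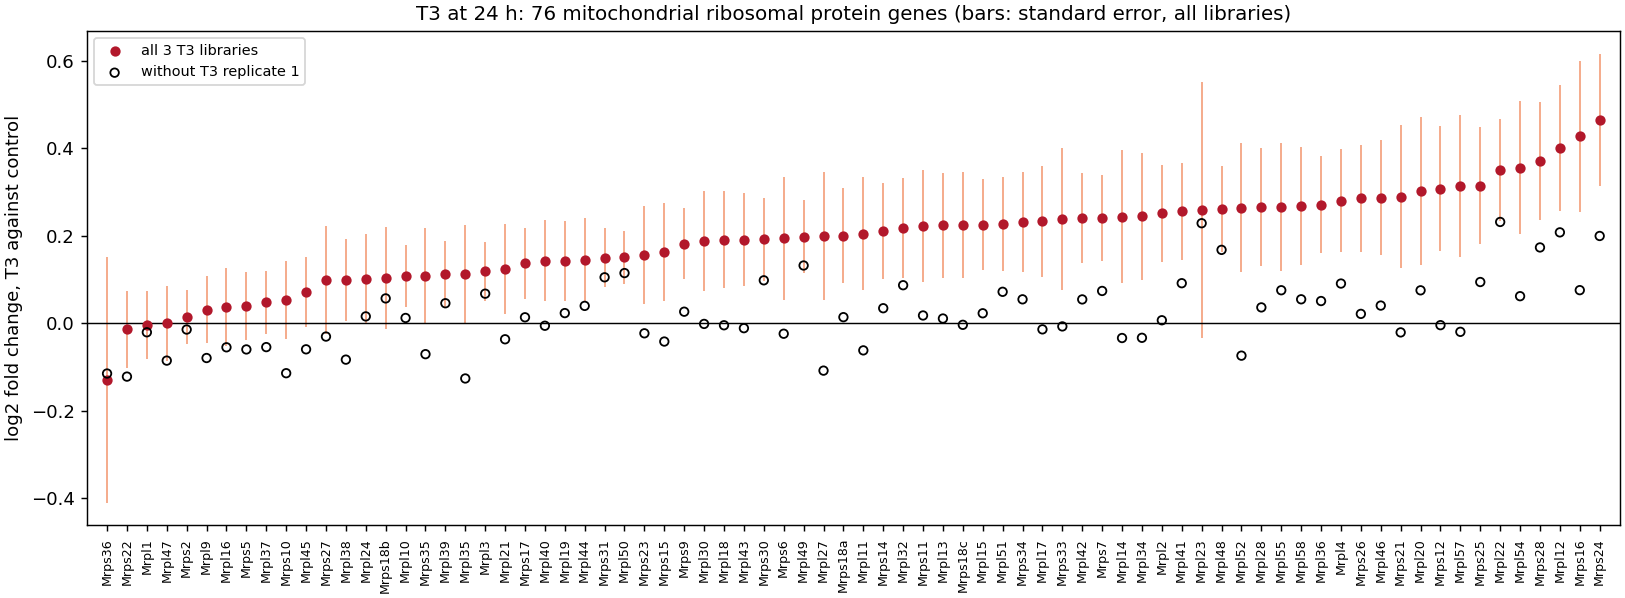
Log2 fold change of 76 members after 24 h of T3 against 24 h control, with standard errors, from all libraries (filled) and without T3 replicate 1 (open). With all libraries 72 of 76 lie above 0, with a median of 0.20, and without replicate 1 the points centre on 0.01 with 42 above 0.

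Replicates 2 and 3 alone lay close to the controls. Their mean differed from the control mean by −0.13 to 0.23 log2 over the 76 members, with a median of 0.01, and 72 were within 0.2 log2. By subunit, in the fit of all libraries the median was 0.22 log2 for 47 Mrpl genes and 0.19 for 29 Mrps genes, and without replicate 1 it was 0.02 and 0.01. Lane here is a number in the names under which the counts were deposited, taken to be the sequencing lane, and not from the sample labels. Lane 6 held the controls and T3 replicates 1 and 2, while replicate 3 alone was on lane 7. Without replicate 3, 12 members were called higher, among them Mrpl2, Mrps25, Mrps24 and Mrpl22. Of all genes 9.13% were called there in either direction, and the share called higher is not given. Replicate 1, which was high across the members, is 1 of the 2 T3 libraries in that fit. What lane and library each contributed was not tested.

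T3 for 6 h called no member. Of 76 members 0 were called, against 3.77% of all genes. DESeq2 called 1, and again its share over all genes is not given. The median was −0.05 log2, and 20 of 76 were positive, against 50.8% of all genes. An unadjusted p under 0.05 was found for 1 member, against 16.7% of all genes. Groups were apart in 2 members, both lower with T3, a state that 4.81% of all genes showed. The smallest adjusted p belonged to Mrpl37, a protein found in mitochondrial ribosomes only. It had 44.2, 51.4, 46.9 and 48.9 CPM with T3, against 54.6, 58.3, 51.6 and 57.2 CPM in 6 h controls, and the groups were apart by a narrow gap. The log2 fold change was −0.21 ± 0.07 (edgeR adjusted p = 0.0818), and Mrpl37 was called without 24 h T3 replicate 1 (adjusted p = 0.0225), a library that enters this comparison only through the pooled dispersion and the filter, and by DESeq2. Without that library 6.07% of all genes were called, 2.16% as lower. Next were Mrpl30 (log2 fold change −0.22, edgeR adjusted p = 0.307) and Mrpl14 (−0.28, adjusted p = 0.331).

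T3 in the presence of CHX called no member either. Of 76 members 0 were called, against 1.29% of all genes. The median was −0.08 log2 and 6 of 76 were positive, against 48.3% of all genes. All CHX with T3 libraries were on lane 6 and 3 of the 4 with CHX alone on lane 5, so T3 and lane nearly coincide here. With lane as a term 0 members were called, 24 were positive and the median was −0.06 log2, with 4.10% of all genes called. The lane term rests on CHX replicate 4, the only library on lane 6 of the group with CHX alone. Without that term, an unadjusted p under 0.05 was found for 4, all lower, against 12.6% of all genes in either direction. DESeq2 called 0. Groups were apart in 8 members, all lower with T3, a state that 5.17% of all genes showed. CHX with T3 replicate 3 was low across the members (0.215% of gene counts, against 0.253 to 0.262% in the other 3), and without it the median was −0.05 log2 with 23 positive. Mrps26, a protein of the small subunit found in mitochondria only, had 24.2, 23.1, 21.6 and 24.2 CPM with CHX and T3, against 27.9, 30.8, 28.0 and 28.4 CPM with CHX alone. The groups did not overlap. The log2 fold change was −0.30 ± 0.11 (edgeR adjusted p = 0.250), and Mrps26 was called without 24 h T3 replicate 1 (adjusted p = 0.0233), when 2.56% of all genes were called, 0.454% as lower, and not when CHX replicate 4 was left out as well. Mrpl39 (−0.17 log2, edgeR adjusted p = 0.308) and Mrpl10 (−0.14 log2, adjusted p = 0.381) followed.

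The T3 effect was also compared between times and between CHX states, by a test of the difference itself. For 24 h minus 6 h, 0 of 76 members were called, against 0.839% of all genes, and DESeq2 called 0. The median difference was 0.26 log2. An unadjusted p under 0.05 was found for 19 members, all with the higher value at 24 h, and for 15.6% of all genes in either direction. The smallest adjusted p were those of Mrpl36 (0.45 ± 0.15 log2, edgeR adjusted p = 0.165), Mrps24 (0.60 ± 0.21, adjusted p = 0.181) and Mrpl37 (0.26 ± 0.10, adjusted p = 0.212). Without 24 h T3 replicate 1 the median was 0.06 log2, with 0.669% of all genes called. No member had an unadjusted p under 0.05 in that fit, against 10.8% of all genes. For the effect with minus without CHX, 0 of 76 were called, against 1.22% of all genes, and DESeq2 called 0. An unadjusted p under 0.05 was found for 2 members, against 13.4% of all genes, and the median was −0.04 log2. Without CHX with T3 replicate 3 this median was 0.02 log2, with 42 members positive in place of 27. The 2 members were Mrpl39 (−0.26 ± 0.10 log2, edgeR adjusted p = 0.230) and Mrps26 (−0.40 ± 0.16, adjusted p = 0.253), and Mrps26 was called without 24 h T3 replicate 1 (adjusted p = 0.0393), when 2.94% of all genes were called, 1.5% as lower.

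CHX changed members in both directions. Against 6 h controls, 19 of 76 members rose and 23 fell, a share of 55.3%, where 67.5% of all genes were called, 37% higher and 30.6% lower (edgeR, adjusted p under 0.05). The changes were small beside those of other genes: the median absolute log2 fold change was 0.26 for members and 0.47 for all genes tested, 1 member changed at least 2-fold, and 3 rose and 8 fell by at least 1.5-fold. The median of the members was −0.05 log2, against 0.06 for all genes. All CHX libraries lay above all controls in 19 members and below them in 23. Of all genes 34.3% lay wholly above and 28.4% wholly below, so groups that do not overlap are common in this comparison. Without 24 h T3 replicate 1, 20 rose and 26 fell, with 69.8% of all genes called, 38.1% higher and 31.7% lower. Within lane 5, leaving out CHX replicate 4 on lane 6, 17 rose and 21 fell, with 65.1% of all genes called. Markers of astrocytes also fell with CHX, 10 of 13, in a list whose summed level was 8962 to 10644 CPM with CHX, against 12040 to 12915 CPM in 6 h controls. In the other lists, 4 of 8 tested oligodendrocyte lineage markers fell and 2 rose, and 5 of 13 microglial markers fell and 0 rose. Of 10 tested vascular and meningeal markers 3 fell and 1 rose, and of 10 neuronal markers 1 fell and 1 rose. The part of these marker changes in the members' changes was not tested.

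**Figure D4:**
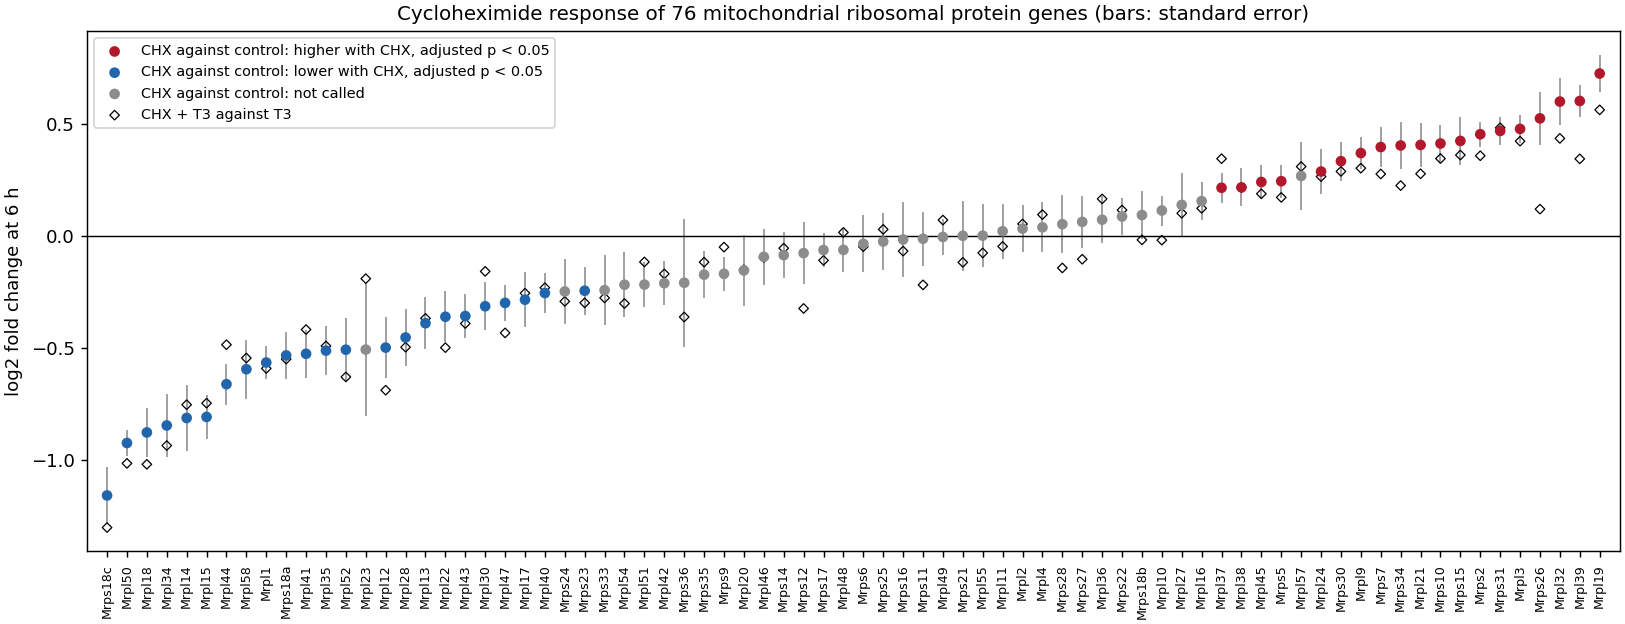
Log2 fold change of 76 members at 6 h for CHX against control (circles with standard errors, red higher and blue lower at an adjusted p under 0.05, grey not called) and for CHX with T3 against T3 (open diamonds), ordered by the CHX effect. Values run from −1.16 (Mrps18c) to 0.72 (Mrpl19), and most diamonds lie near their circles.

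Mrps18c fell most. It is 1 of 3 paralogs of the bacterial S18 protein, and had 7.89, 6.68, 7.71 and 7.45 CPM with CHX, against 17.3, 16.9, 15.2 and 17 CPM in 6 h controls. Every CHX library lay below every control. The log2 fold change was −1.16 ± 0.13 (edgeR adjusted p = 1.19e-08). Its paralog Mrps18a, whose protein sits in the large subunit, had 28.5, 28.3, 29.3 and 29.9 CPM with CHX, against 41, 43.5, 36.5 and 47.0 CPM in controls (log2 fold change −0.53 ± 0.10, edgeR adjusted p = 7.4e-05). Mrps18b, the third, had 10.8, 8.78, 8.89 and 9.55 CPM with CHX, against 8.23, 8.11, 8.38 and 11.2 CPM in controls, with overlapping groups and no call (0.09 log2). So 2 of the 3 paralogs fell and 1 was not called.

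Among proteins of the large subunit, Mrpl50, found in mitochondria only, had 28.4, 30.8, 29.1 and 31.3 CPM with CHX, against 57.7, 55.8, 53.7 and 59.8 CPM in controls, a change of −0.92 ± 0.06 log2 (edgeR adjusted p = 5.57e-13). Mrpl18, counterpart of the bacterial protein that binds 5S RNA, had 13.3, 13.8, 15.3 and 12.6 CPM with CHX, against 25.8, 24.9, 21.5 and 29.1 CPM in controls (−0.88 ± 0.11 log2, edgeR adjusted p = 1.06e-07). In both, all CHX libraries lay far below all controls. Further members with bacterial counterparts that fell were Mrpl34 (−0.85 ± 0.14 log2), Mrpl14 (−0.81 ± 0.15), Mrpl15 (−0.81 ± 0.10) and Mrpl1 (−0.57 ± 0.08), which forms the stalk beside the exit site for tRNA. Mrpl44, which carries a domain of the RNase III type, fell by 0.66 log2, and Mrpl41 fell by 0.53.

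Members that rose did so by less. Mrpl19 (chr6:81957851-81965958, minus strand), counterpart of bacterial L19, had 34.9, 33.7, 35.6 and 34.6 CPM with CHX, against 21.9, 22.2, 18.2 and 21.8 CPM in controls. The groups were well apart, with a change of 0.72 ± 0.08 log2 (edgeR adjusted p = 3.39e-08). Exons of Mrpl19 share 36.0% of their bases with Gcfc2 on the opposite strand, and Gcfc2 rose by 1.70 ± 0.11 log2, to 34.6 CPM with CHX, against 10.6 CPM in controls. What part of the Mrpl19 change reads from Gcfc2 make up was not tested. Mrpl39, found in mitochondria only and with no exon overlap, had 71.8, 62.0, 66.3 and 73.5 CPM with CHX, against 46.0, 48.0, 41.5 and 45.1 CPM in controls (0.60 ± 0.07 log2, edgeR adjusted p = 6.71e-08). Mrpl32, whose maturation by a mitochondrial protease is known to gate ribosome assembly, had 31.7, 32.2, 31.1 and 32.4 CPM with CHX, against 20.0, 22.5, 19.0 and 22.7 CPM in controls (0.60 ± 0.11 log2, edgeR adjusted p = 2.32e-05). Both were higher in every CHX library than in any control. In the small subunit, Mrps26 (0.52 ± 0.12 log2), Mrps31 (0.47 ± 0.06), Mrps2 (0.45 ± 0.06), Mrps10 (0.41 ± 0.08) and Mrps7 (0.40 ± 0.09) rose, as did Mrpl3 (0.48 ± 0.06) and Mrpl9 (0.37 ± 0.07) in the large subunit. Of 13 pairs of a member and an exon-sharing gene outside the set in which both were called, 9 moved in the same direction and 4 in opposite directions. Mrpl24 rose by 0.29 log2 where Rrnad1 rose by 1.15, and Mrps34 rose by 0.40 where Mapk8ip3 rose by 0.54. Against that, Mrpl44 fell by 0.66 where Wdfy1 rose by 1.93, and Mrps7 rose by 0.40 where Mif4gd fell by 0.59.

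**Figure D5:**
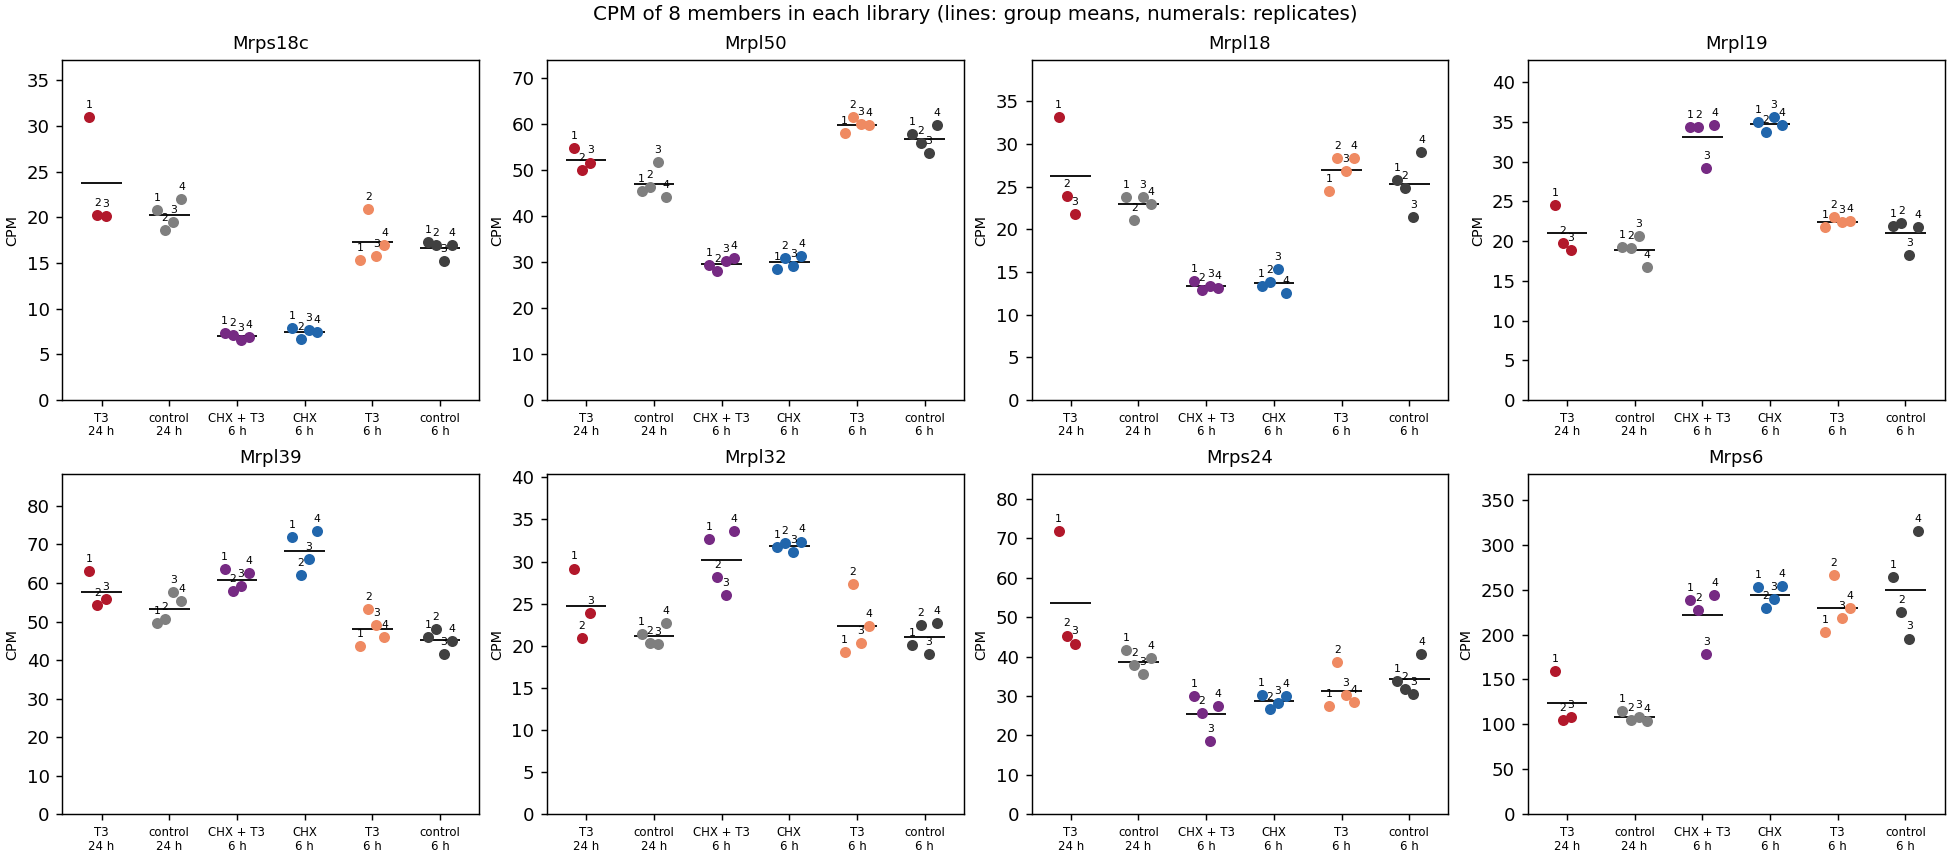
CPM of 8 members in each of 23 libraries, with group means as lines and replicate numbers beside the points. Mrps18c, Mrpl50 and Mrpl18 are lower and Mrpl19, Mrpl39 and Mrpl32 higher by group mean in the groups with CHX than in the other 6 h groups, Mrps24 is highest in 24 h T3 replicate 1, and Mrps6 is lower at 24 h than at 6 h.

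The direction was split by name and by origin as a description, to be read beside the 37% of all genes that rose and the 30.6% that fell. Of 47 Mrpl genes 10 rose and 20 fell, and of 29 Mrps genes 9 rose and 3 fell (Mrps18c, Mrps18a and Mrps23). By name, Mrps18a and Mrps30 count with the small subunit, although structures place both proteins in the large one. Of 47 members with a bacterial counterpart 11 rose and 15 fell, and of 28 found in mitochondria only 8 rose and 8 fell. Among the 47 members whose exons overlap no other gene of the count tables, 11 rose and 15 fell. The median exon length was 2919 bases in members that rose, 1644 in those that fell and 2091 in those not called. Across the 76 members the log2 fold change had a Pearson r of 0.25 with log2 exon length, against 0.07 across all genes with a length. Members share their libraries, so these values describe the set only. With the length and GC trend removed, 49 members and 69.9% of all genes were called.

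With T3 present, CHX gave much the same picture. Against T3 alone, 17 of 76 members rose and 22 fell, a share of 51.3%, where 67.3% of all genes were called, 36.3% higher and 31% lower. Both comparisons called 17 of the same members higher and 21 of the same lower, 4 were called only without T3 and 1 only with T3. The share of all genes called alike in both is not given, where 67.5% were called without T3 and 67.3% with it. The 2 comparisons share no library, but both come from 1 fit with a dispersion pooled over all 23 libraries. Mrps18c had 7.38, 7.14, 6.59 and 6.91 CPM with CHX and T3, against 15.3, 20.9, 15.8 and 17 CPM with T3 alone, and its change of −1.30 ± 0.13 log2 was again the largest fall (edgeR adjusted p = 1.69e-09). Mrpl50 (−1.01 ± 0.06) and Mrpl18 (−1.02 ± 0.11) fell, and Mrpl19 (0.56 ± 0.08), Mrps31 (0.48 ± 0.06) and Mrpl3 (0.42 ± 0.06) rose. Mrpl37 (0.34 ± 0.07) and Mrps30 (0.29 ± 0.09) rose, and Mrpl47 fell by 0.43. All CHX with T3 libraries were on lane 6 and all T3 libraries on lane 5. With lane as a term 10 rose and 12 fell, with 47.2% of all genes called. That term rests on CHX replicate 4, the only library on lane 6 of the group with CHX alone, and cannot separate CHX from lane. Without 24 h T3 replicate 1, 19 rose and 27 fell, with 69.6% of all genes called, 37.5% higher and 32.2% lower.

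Controls differed between times. At 24 h against 6 h, 10 of 76 members were higher and 8 lower, a share of 23.7%, where 56.6% of all genes were called, 28.2% higher and 28.4% lower. Without 24 h T3 replicate 1 the counts were 14 and 10, with 60.1% of all genes called, 29.7% higher and 30.4% lower. Mrps6 (chr16:92058270-92112227, plus strand) had 115, 105, 108 and 104 CPM in 24 h controls, against 264, 225, 196 and 316 CPM in 6 h controls, with the groups well apart. Its change was −1.21 ± 0.13 log2 (edgeR adjusted p = 3.1e-08). Slc5a3, a myo-inositol transporter gene whose exons overlap 10.4% of those of Mrps6 on the same strand, changed by −2.04 ± 0.11 log2, with 104 CPM at 24 h against 429 CPM at 6 h. Under CHX, Slc5a3 changed by −1.69 ± 0.11 log2 and Mrps6 by −0.04 ± 0.13 (edgeR adjusted p = 0.816). Mrps15, which had 28.7, 27.5, 32.9 and 30.9 CPM at 24 h against 19.8, 20.3, 19.1 and 18.6 CPM at 6 h, was higher by 0.62 ± 0.11 log2 (edgeR adjusted p = 3.07e-05). Mrpl38 had 35.7, 35.0, 39.0 and 36.9 CPM at 24 h, against 48.8, 51.1, 53.3 and 57.0 CPM at 6 h (−0.52 ± 0.09 log2, edgeR adjusted p = 1.95e-05). Neither pair of groups overlapped, a state that was common between these times. All 24 h controls lay above all 6 h controls in 24.8% of all genes and below them in 26.3%. For members these counts were 14 and 7 of 76. Mrpl24 (0.43), Mrpl40 (0.42) and Mrpl48 (0.35) were higher, and Mrps30 (−0.37) and Mrpl50 (−0.27) lower. Time and lane coincide in these controls. With lane as a term 1 member was higher (Mrps15) and 3 lower (Mrps6, Mrpl38 and Mrpl50), with 27.4% of all genes called. Only the group with CHX alone lay on both lane 5 and lane 6. The term therefore rests on CHX replicate 4 and cannot separate time from lane.

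Members differed in how much they varied over the 6 groups. The ratio of the highest to the lowest group mean had a median of 1.51 over 76 members, with 8 at 2 or more and 35 under 1.5, while the median within-group coefficient of variation was 8.45%. Mrps18c had the largest ratio, 3.39, between 24 h T3 and CHX with T3, and Mrps22 the smallest, 1.10. The highest mean was in 24 h T3 for 48 members, and for 20 without T3 replicate 1, when the median ratio was 1.39, with 5 members at 2 or more and 45 under 1.5. The within-group variation of the median member was 21.7% in 24 h T3, 4.89% in 24 h controls, 9.09% with CHX and T3, 4.96% with CHX, 10.3% with T3 at 6 h and 10.1% in 6 h controls.

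Genes that work beside these proteins were counted from lists against the 67.5% of all genes that CHX moved. Of 18 mitochondrial translation factors and associated genes 11 rose and 3 fell with CHX. Trub2 was at 1.13 ± 0.07 log2 and the release factor gene Mtrf1l at 1.07 ± 0.09. Of 30 assembly and rRNA factors 20 rose and 6 fell, among the rises the rRNA methyltransferase genes Mrm3 (2.03 ± 0.11) and Mrm1 (1.07 ± 0.09) and the GTPase gene Eral1 (1.01 ± 0.07). Of 20 mitochondrial tRNA synthetase genes 14 rose and 3 fell, with Yars2 at 1.33 ± 0.10 and Tars2 at 1.27 ± 0.08. Of 19 regulators 8 rose and 3 fell, with Pprc1 at 1.93 ± 0.07 and Ppargc1a at 1.78 ± 0.11. Their median log2 fold changes were 0.39, 0.47, 0.51 and 0.11 in that order, against −0.05 for the ribosomal protein members and 0.06 for all genes. Of the 5 ribosomal subunits with other names, Ptcd3 (1.00 ± 0.06) and Aurkaip1 (0.40 ± 0.13) rose and Gadd45gip1 fell by 0.34.

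Other components of the respiratory system and of cytosolic ribosomes were mostly lower with CHX. Of 9 transcripts of the mitochondrial genome all 9 fell, with mt-Nd2 at −2.07 ± 0.06 log2 and mt-Nd1 at −1.74 ± 0.06 (median −1.05). Of 47 cytosolic ribosomal protein genes 37 fell and 1 rose, Rpl10a (median −0.56), and of 38 nuclear respiratory chain genes 29 fell and 1 rose, Ndufs1 (median −0.38).

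In the lists, T3 for 24 h is set beside the 7.09% of all genes called, and 5.91% without T3 replicate 1. Of 19 regulators 3 rose, the coactivator gene Ppargc1a (0.57 ± 0.12 log2, edgeR adjusted p = 0.00281), the corepressor gene Nrip1 (0.44 ± 0.12, adjusted p = 0.0206) and Esrra (0.33 ± 0.09, adjusted p = 0.0304). Without T3 replicate 1 Ppargc1a was at 0.70 and Nrip1 at 0.64 log2, both called, and Esrra was not (adjusted p = 0.222). Of 18 translation factors and associated genes 1 rose, Letm1 (0.25 ± 0.05, edgeR adjusted p = 8.24e-04), which is not itself a translation factor. Letm1 was called also without that library, when the elongation factor gene Gfm1 was called as well. Of 20 tRNA synthetase and amidotransferase genes 1 rose, Qrsl1 (0.33 ± 0.09, adjusted p = 0.0156), which was not called without that library. Of 30 assembly factors 2 rose, Mpv17l2 and Malsu1, and neither was called without replicate 1. Of 38 respiratory chain genes 7 rose, and all 38 had a positive fold change (median 0.32 log2), with 2 called and a median of 0.11 log2 without that library. Of 47 cytosolic ribosomal protein genes and 9 mitochondrial transcripts 0 were called, and the smallest adjusted p were 0.157 (Rpl38) and 0.187 (mt-Co1).

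Variation among the libraries of a group was compared between members. With each gene's log2 CPM centred on its group mean, the members had a median Pearson r of 0.86 with the median of all members over 23 libraries, and 50 of 76 were over 0.8, while Mrpl1 had 0.09. Over all 16087 genes the median r was −0.02, and 8.65% were over 0.8. Members enter the median they are compared with, which raises their r, and genes outside the set do not. Over 22 libraries, without 24 h T3 replicate 1, the median r was 0.77, 34 were over 0.8 and the lowest was Mrps5 at −0.34, against a median of −0.04 and 5.11% over 0.8 for all genes. The genes outside the set whose pattern was most like the median of the members were Ldhb (r = 0.985), Atp5j2 (0.983), Rpl32 (0.981), Prdx2 (0.981) and Park7 (0.980). Without that library they were Park7 (0.979), Cox4i1 (0.977), Rps14 (0.977), Rps3 (0.977) and Commd1 (0.976). All points share the libraries' depth and composition, so r describes these 23 libraries.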

How the data were processed

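Gene counts were deposited by the authors as 1 table of whole-number counts per library, with HTSeq's summary lines, per the file headers. Tools listed in the submitters' processing notes, with no versions, are HTSeq, TopHat, Bowtie, bcl2fastq, FastQC and edgeR, and the build is GRCm38. Per the labels' protocols, 200 ng of total RNA went into NEBNext Ultra libraries, which do not mark strand, read as single 50-nt reads. Of the counted lines 30.7 to 42.3% were not unique, 3.75 to 5.81% lay in no feature and 1.40 to 1.70% were ambiguous. These lines were left out of library sizes and tests. Symbols, exon lengths and overlaps came from GENCODE M21 by gene ID.

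From the counts, edgeR 4.0.16 (limma 3.58.1, R 4.3.3) was run with TMM scaling, filterByExpr at a minimum count of 10 (16087 genes) and quasi-likelihood F tests in 1 fit of the 6 groups with 17 residual degrees of freedom. P-values were adjusted by Benjamini-Hochberg over all genes, and called means an adjusted p under 0.05. Standard errors are the absolute log2 fold change over the square root of F. Centred log2 CPM values used a prior count of 2. DESeq2 was 1.42.0. Gene counts of 13843040 to 22997873 per library and a common biological coefficient of variation of 8.57% set the precision. Only the edgeR fit, for T3 against control at 24 h, was tested on simulated counts, which had a fixed dispersion. The other steps were not tested in this way.

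Members and lists were chosen with earlier results of these data known. Named members are those called, up to 10 per direction by adjusted p (4 for the time comparison), or the 3 with the smallest adjusted p where fewer than 3 were called, the 5 highest and 5 lowest per kilobase, and those with exon overlaps. Mrps18b, Mrps23, Mrps5, Mrpl23-ps1, Wdfy1 and Mif4gd were named after their values were seen. Deviations of same-numbered samples were only weakly correlated: no comparison had all pairs over 0.1. Low correlations cannot show that the samples came from separate cultures, so whether the numbers pair the samples is not known. No pair of libraries within a group was a duplicate (chi-square per degree of freedom 1.73 to 38.4). Pairs across groups were not compared. Alternatives were DESeq2, RLE scaling, no filter, only the compared groups, lane as a term, removal of the length and GC trend (98.8% of genes have values), replicate blocks, and each library left out.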

Additional observations from a re-analysis of the deposited data

Results flagged for a closer look

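The test for single outlying libraries was run on 110 sets of 4 values, each a gene in a group. They did not cover all members, and sets share libraries, so they are not independent. Chance flags about 1 in 20 of such sets. In 9 sets, a library had a gap to its nearest neighbour over Dixon's critical value of 0.829 of the range. In 24 h controls these were Mrps26 in replicate 4 (26.3 CPM, against 23.9 to 24.1 in the other 3) and Mrpl37 in replicate 1 (55.5 CPM, against 53.1 to 53.3). In CHX with T3 it was Mrpl19 in replicate 3 (29.2 CPM, against 34.3 to 34.6), the library that was low across the members. With CHX alone it was Mrps26 in replicate 2 (30.8 CPM, against 27.9 to 28.4). With T3 at 6 h these were Mrps2 in replicate 2 (38.8 CPM, against 41 to 41.3) and Mrpl22 in replicate 1 (10.6 CPM, against 12.7 to 13.0). In 6 h controls these were Mrps18c in replicate 3 (15.2 CPM, against 16.9 to 17.3), Mrpl19 in replicate 3 (18.2 CPM, against 21.8 to 22.2) and Mrps18b in replicate 4 (11.2 CPM, against 8.11 to 8.38). Replicate 3 was the lowest and replicate 4 the highest of the 6 h controls across the members (−0.14 and 0.18 log2). The group of 3 libraries with T3 at 24 h was too small for this test.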

How the results depend on the processing

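No member that passed the test changed its direction under an alternative that was run, but medians of the members near 0 did. For T3 at 6 h the median, −0.05 log2, turned positive without 6 h T3 replicate 1. For CHX at 6 h it was −0.05 log2 and turned positive without 6 h control replicate 4. It was −0.04 log2 for the difference of the T3 effect between CHX states, and turned positive without CHX with T3 replicate 3, 6 h T3 replicate 2 or 6 h control replicate 3. Between control times it was 0.01 log2 and changed sign under several settings, DESeq2 among them. After 24 h of T3, members called higher numbered 0 with all libraries, 1 with DESeq2, with no filter, after removal of the length and GC trend, and with the replicate block by letter, 2 with the replicate block by number, 11 with lane as a term, and 0 to 12 when 1 library was left out, the 12 without T3 replicate 3. That library is the only one on lane 7, so the lane term takes it up. The 11 and the 12 are therefore not separate results. With T3 at 6 h, members called lower numbered 1 with DESeq2, after trend removal, and when 24 h T3 replicate 1 and CHX replicate 4 were both left out, and 0 to 1 when 1 library was left out. With T3 in CHX, 1 was lower in a fit of the compared groups alone and 0 to 1 when 1 library was left out. For CHX in the presence of T3, 10 were higher and 12 lower with lane as a term. Between control times, 16 were higher in a fit of the compared groups, 15 were lower with the trend removed, and 1 was higher and 3 lower with lane as a term. The difference of the T3 effect between times gave 1 higher with lane as a term and 0 to 1 when 1 library was left out, and the difference between CHX states gave 0 to 1 lower. Leaving out 1 library gave 17 to 20 higher and 19 to 26 lower for CHX, 12 to 19 higher and 19 to 27 lower for CHX with T3, and 7 to 14 higher and 7 to 11 lower between times. The replicate block, whose numbers are not known to pair the samples, called 43 for CHX and 41 for CHX with T3. The share of all genes called is given above for some of these fits and not for the others. A count without that share cannot be read against all genes. Of the values for named genes, 23 crossed to an adjusted p under 0.05 and 7 crossed out of it under an alternative. The cause of these moves was not tested, beyond the library or term each alternative changes. The lane term rests on CHX replicate 4 for lanes 5 and 6, and on 24 h T3 replicate 3 for lane 7. Low counts limit Mrpl23, Mrps36 and Mrpl53.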
